A study of Mus musculus with 4 samples.

Results

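Hair cells (HCs), the mechanosensory cells of the ear, release glutamate onto the afferent neurons through ribbon synapses, and the levels of 8 genes of this synapse were followed in 4 sorted cell populations of the mouse inner ear. The genes were chosen by name: *Otof*, *Slc17a8*, *Cacna1d*, *Ctbp2*, *Bsn*, *Pclo*, *Cabp2* and *Rims2*. All 8 had a row in the expression table, which held 12814 genes. The mice carried the *Atoh1/nGFP* transgene on a C57BL/6 background and were taken at postnatal day 1. HCs were sorted as cells with both the green fluorescent protein and the epithelial surface protein CD326, and epithelial non-sensory cells (ENSCs) as cells with CD326 alone. Each population was sorted both from the cochlea, which serves hearing, and from the vestibular organs, which serve balance. This gave cochlear HCs, cochlear ENSCs, vestibular HCs and vestibular ENSCs. No treatment was given, and both cell types came from the same transgenic mice, with the inner ears of several mice pooled per sort. The fluorescent protein is driven by an enhancer of *Atoh1*, a factor of early HCs, and is carried by every kind of HC, so that inner and outer HCs of the cochlea were not separated, nor were type I and type II HCs of the vestibular system.

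A ribbon synapse differs from a conventional synapse by the ribbon, an electron-dense body that holds vesicles close to the release site. A change in membrane potential opens L-type calcium channels beneath the ribbon, calcium binds to a sensor on the vesicle, and the vesicle fuses and releases the glutamate with which a transporter had filled it. At birth these synapses are still maturing, and mutations in several of their genes cause deafness with otherwise intact HCs. Among the genes followed here, *Slc17a8* encodes the vesicular glutamate transporter VGLUT3, *Otof* the calcium sensor otoferlin, *Cacna1d* the pore of the CaV1.3 channel and *Cabp2* a calcium-binding protein that tunes it. *Ctbp2* encodes, from an internal start, the ribbon protein RIBEYE. *Bsn* (bassoon) and *Pclo* (piccolo) encode large scaffold proteins that anchor the ribbon and the active zone, and *Rims2* encodes the active zone protein RIM2.

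The table held 1 column per population, so that values have no replicate error, the spread between sorts is unknown, and p-values cannot be given. The design names triplicates, and whether a column is 1 library or combines several is not given in the sources used here. Each column is called a library below. Values are a quantile-normalized signal with a floor of 20, and the depth of each library is unknown. Each column summed to 7830343 with a median of 120, and 1412 genes stood at the floor in each. At the low end of a library the signals followed the gene's highest signal elsewhere and not its own level. This tied range ended at 24.25 in cochlear HCs, 22.75 in cochlear ENSCs, 30.5 in vestibular HCs and 20 in vestibular ENSCs, and a fold against a signal inside it is given as a lower bound against its top. A looser rule, tried on the same data, ended it at 23.25 in vestibular ENSCs and left the other 3 ends as they were. In each organ the HC signal of all 10 listed HC markers was at least 3 times the ENSC signal. Of the 4 epithelial markers, 3 were at least 3-fold higher in ENSCs of the cochlea and 4 in those of the vestibular system. In sorted cells, fewer cells of a type and less RNA per cell cannot be told apart.

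The promoter sequences of the genes are shown because 6 of the 8 genes passed 3-fold in favour of HCs in each organ and the study searched for regulators of HC genes. RefSeq windows (GRCm38.p6), each 250 bases before to 50 after a start, were given for 6 of the 8 genes, with 10 starts in all, and none for *Otof* and *Rims2*. Every window was found once, letter for letter, on the same chromosome of the mm9 genome (NCBIM37), to which the coordinates below belong. The 3 motifs searched on both strands were the E-boxes CAGCTG and CAGATG, and the RFX palindrome, made of the half-site GTTNCC, the bases A and T and the reverse complement of the half-site, with up to 2 mismatches. The RFX palindrome was found in 1 of the 10 windows, that of the upstream *Cacna1d* start, at position -95, against 3.5% of all 32851 windows. A looser setting than the one fixed for the search, with up to 3 mismatches, was met in 4 of the 10, against 12.99% of all windows. The windows added were those of *Pclo*, the upstream *Slc17a8* start and the second *Cabp2* start. Several windows belong to the same gene and are not independent. CAGATG was found at -119 of *Pclo*, -42 of the downstream *Slc17a8* start and -147 of the first *Cabp2* start, against 17.15% of all windows. CAGCTG was found at 33 after the *Bsn* start and at -183 of the downstream *Cacna1d* start, against 16.3%. A match is a description of letters and not a binding site. The 250 bases before 4 of these starts follow, in lower case with motif matches in capitals.
Cacna1d, upstream start, holding the RFX palindrome match (chr14:31304343-31304592, minus strand): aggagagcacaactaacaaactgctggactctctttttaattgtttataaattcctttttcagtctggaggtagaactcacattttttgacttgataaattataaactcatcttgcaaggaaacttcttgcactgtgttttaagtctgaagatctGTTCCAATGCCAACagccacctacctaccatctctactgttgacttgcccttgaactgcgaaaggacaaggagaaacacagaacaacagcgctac
Pclo, holding CAGATG on the other strand (chr5:14514668-14514917, plus strand): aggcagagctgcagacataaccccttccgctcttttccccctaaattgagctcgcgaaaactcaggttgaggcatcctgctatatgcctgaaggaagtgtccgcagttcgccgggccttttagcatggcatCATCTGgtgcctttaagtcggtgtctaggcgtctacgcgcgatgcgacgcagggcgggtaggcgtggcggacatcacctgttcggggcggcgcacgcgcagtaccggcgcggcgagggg
Slc17a8, downstream start, holding CAGATG on the other strand (chr10:89062561-89062810, minus strand): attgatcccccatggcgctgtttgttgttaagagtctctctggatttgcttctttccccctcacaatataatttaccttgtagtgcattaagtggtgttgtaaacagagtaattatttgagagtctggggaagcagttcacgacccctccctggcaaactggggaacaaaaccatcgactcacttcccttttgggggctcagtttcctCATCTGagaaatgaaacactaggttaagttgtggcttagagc
Ctbp2, internal start of the ribbon form, holding none of the 3 motifs (chr7:140206931-140207180, minus strand): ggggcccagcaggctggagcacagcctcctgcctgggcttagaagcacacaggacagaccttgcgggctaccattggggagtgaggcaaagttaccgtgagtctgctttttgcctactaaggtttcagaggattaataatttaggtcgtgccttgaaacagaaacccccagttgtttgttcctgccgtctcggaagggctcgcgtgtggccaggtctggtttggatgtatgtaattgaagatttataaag

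HCs exceeded ENSCs at least 3-fold for 6 of the 8 genes in each organ. In the cochlea these were *Otof*, *Rims2*, *Bsn*, *Cacna1d*, *Slc17a8* and *Pclo*, and in the vestibular system *Otof*, *Slc17a8*, *Cabp2*, *Bsn*, *Cacna1d* and *Pclo*. Over all genes 8.39% were at least 3-fold higher in cochlear HCs and 13.8% in vestibular HCs. None of the 8 genes was at least 3-fold lower in HCs, against 9.2% and 14.3% of all genes. The median log2 ratio of HC to ENSC signal over the 8 genes was 3.35 for the cochlea and 2.91 for the vestibular system, where that over all genes was 0.00 in both. The 5 genes *Otof*, *Slc17a8*, *Cacna1d*, *Bsn* and *Pclo* passed in both organs, as did 640 of all genes (4.99%). The plot of signals by gene shows all 4 values of each gene.

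**Figure D1:**
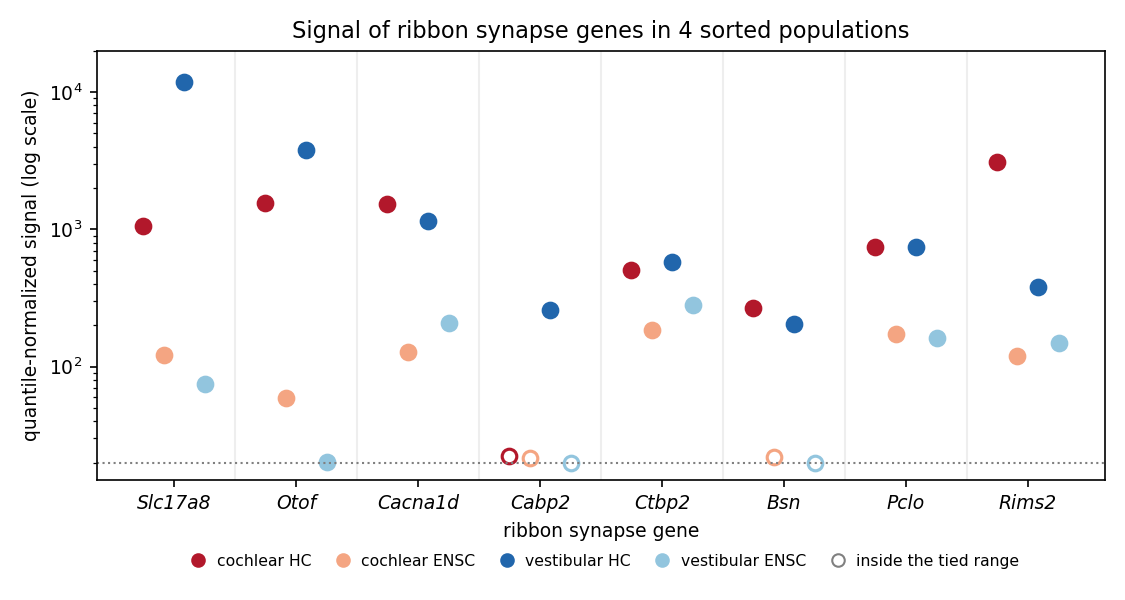
Quantile-normalized signal (log axis, arbitrary units) of the 8 ribbon synapse genes in cochlear HCs, cochlear ENSCs, vestibular HCs and vestibular ENSCs, 1 point per library, with the floor of 20 as a dotted line and open points for signals inside a tied range. The HC points lie above the ENSC points of the same organ, though for *Cabp2* in the cochlea (22.5 and 21.5) both lie inside the tied range; *Slc17a8* in vestibular HCs is the highest point, at 11820.

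The glutamate transporter gene *Slc17a8* (ENSMUSG00000019935, mm9 chromosome 10, 89036765 to 89083998, minus strand) had a signal of 1058 in cochlear HCs, 122.5 in cochlear ENSCs, 11820 in vestibular HCs and 74.25 in vestibular ENSCs. Both HC libraries were above both ENSC libraries, 8.64-fold in the cochlea (log2 ratio 3.11) and 159-fold in the vestibular system (7.31). The related gene *Slc17a6*, which encodes VGLUT2, stood at 20, 47.5, 47.75 and 40.25 in the same order, and *Slc17a7* (VGLUT1) was not analysed here. Within its exons, 6.27% of the bases recur elsewhere in the genome in stretches of at least 50 nt.

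The calcium sensor gene *Otof* (ENSMUSG00000062372, chromosome 5, 30669351 to 30764305, minus strand) had 1565.5 in cochlear HCs, 59.25 in cochlear ENSCs, 3806 in vestibular HCs and 20.25 in vestibular ENSCs. The last signal lay 1 step of 0.25 above the floor. The HC signal was 26.4-fold the ENSC signal in the cochlea (log2 ratio 4.72) and 188-fold in the vestibular system (7.55). By the looser rule the vestibular ENSC signal lay inside the tied range, and the second ratio was then a lower bound of 164-fold. The 2 ENSC libraries differed by 2.93-fold, just under the threshold, and the log2 difference of 1.55 became 2.33 after correction for exonic length and GC content.

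*Cacna1d* (ENSMUSG00000015968, chromosome 14, 30853135 to 31304342, minus strand), the pore-forming subunit of the HC calcium channel, had 1522 in cochlear HCs, 127 in cochlear ENSCs, 1141.5 in vestibular HCs and 206.75 in vestibular ENSCs. Its HC signal was 11.98-fold the ENSC signal in the cochlea and 5.52-fold in the vestibular system (log2 ratios 3.58 and 2.46). ENSCs thus kept 8.34% and 18.1% of the HC signal. The gene shares 5.54% of its exonic bases with *Chdh* on the opposite strand, and the strand setting of the counting is not given in the sources used here.

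*Cabp2* (ENSMUSG00000024857, chromosome 19, 4081578 to 4087340, plus strand), a modulator of that channel, was above the tied range in 1 library only. It had 258.75 in vestibular HCs, and 22.5 in cochlear HCs, 21.5 in cochlear ENSCs and 20 in vestibular ENSCs, all 3 inside the tied ranges of their libraries. Vestibular HCs were at least 12.9-fold above vestibular ENSCs and at least 10.7-fold above cochlear HCs. With a floor of 100, or with 100 added to every signal, the vestibular log2 ratio of HCs to ENSCs was 1.37 or 1.58, under the threshold. In the cochlea a difference between HCs and ENSCs was not detectable. The relatives *Cabp1*, *Cabp4*, *Cabp5* and *Cabp7* were not analysed here.

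*Ctbp2* (ENSMUSG00000030970, chromosome 7, 140179246 to 140316037, minus strand) had in both organs the smallest HC to ENSC ratio of the genes outside the tied ranges, as deposited. It had 503 in cochlear HCs, 185.25 in cochlear ENSCs, 581.25 in vestibular HCs and 280.25 in vestibular ENSCs. Both HC signals were above both ENSC signals, by 2.72-fold in the cochlea and 2.07-fold in the vestibular system (log2 ratios 1.44 and 1.05). After correction for length and GC content the vestibular log2 ratio was 1.92, passed 3-fold and lay above those of *Pclo* (1.85) and *Rims2* (1.49), while the cochlear one was 1.52. The paralogue *Ctbp1*, a transcriptional corepressor like the long-known product of *Ctbp2*, had log2 ratios of 0.22 and -0.27, the second 0.82 after the same correction.

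The signal of *Ctbp2* is a sum over 21 annotated transcripts and does not separate RIBEYE from the corepressor. The annotated transcript with the longest coding sequence, of 2964 nt or 988 codons, starts 109 kb downstream of the start of the gene with a coding exon of 1731 nt (chromosome 7, 140205201 to 140206931), and is taken here as the ribbon form. The longest coding sequence of any other transcript is 1335 nt. Of the 6220 exonic bases of the gene, 199 (3.2%) lie in no transcript but this one, and 1084 (17.4%) only in the 3 transcripts of the internal start, of which the other 2 do not carry the whole coding sequence of the ribbon form. The bases of the later exons are common to both forms. Reads from both forms were therefore counted together, and the transcript map shows the shared exons. The RefSeq start whose upstream bases are shown above lies 1 nt from the annotated start of this form. A further 5.05% of the exonic bases overlap an annotated exon of *Fgfr2* on the same strand, and 4.66% recur at 1 other place in the genome.

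**Figure D2:**
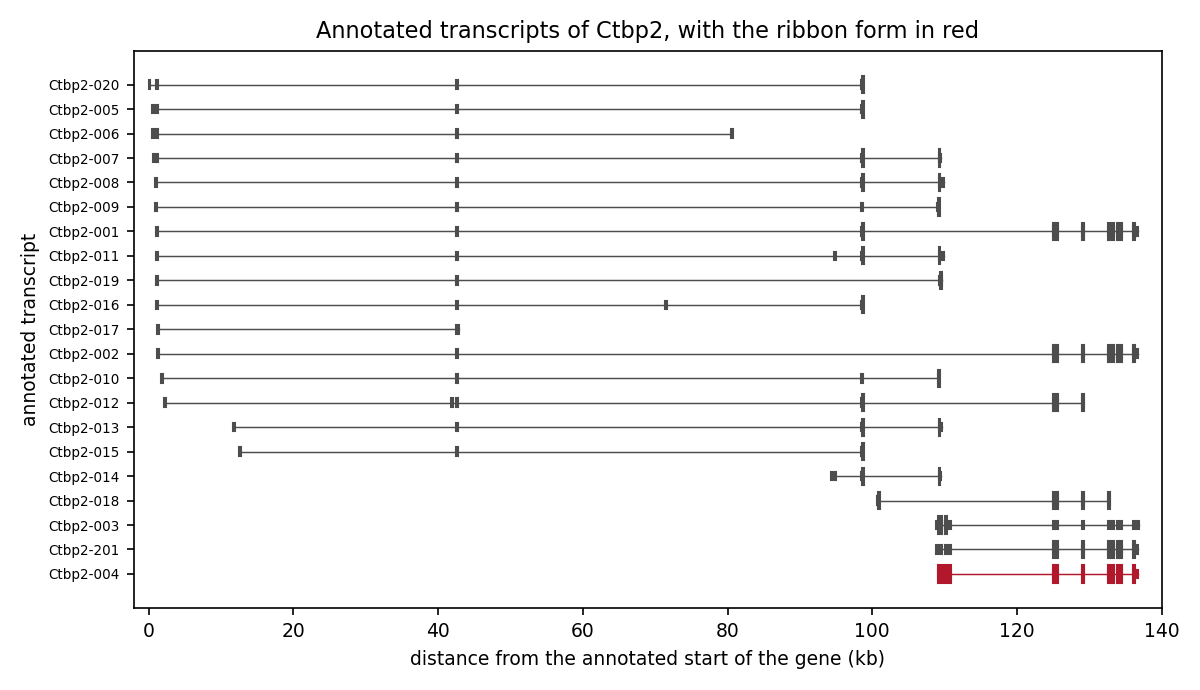
Annotated transcripts of *Ctbp2* (GENCODE on NCBIM37) drawn from the annotated start of the gene (x axis, kb), 1 line per transcript, with tall boxes for coding exons and low boxes for untranslated ones. The ribbon form, in red, starts at 109 kb and shares its later exons with the other full-length transcripts, so that 1 signal per gene covers both.

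The scaffold genes differed in level and in what remained in ENSCs. *Bsn* (ENSMUSG00000032589, chromosome 9, 107998354 to 108092715, minus strand) had 267.25 in cochlear HCs, 22 in cochlear ENSCs, 204.5 in vestibular HCs and 20 in vestibular ENSCs. Its ENSC signals lay inside the tied ranges of both libraries, so that the HC signal exceeded it at least 11.7-fold in cochlear and at least 10.2-fold in vestibular libraries. With the floor raised to 100 its log2 ratios were 1.42 and 1.03, under the threshold. On the opposite strand, the long noncoding RNA gene F630040L22Rik overlaps 11.4% of the exonic bases of *Bsn*.

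*Pclo* (ENSMUSG00000061601, chromosome 5, 14514918 to 14863457, plus strand), the relative of *Bsn*, had 747.5 in cochlear HCs, 173.5 in cochlear ENSCs, 744 in vestibular HCs and 160.75 in vestibular ENSCs. The values of the organs were close to each other in both populations. HCs were 4.31-fold higher in the cochlea and 4.63-fold higher in the vestibular system (log2 ratios 2.11 and 2.21), and ENSCs kept 23.2% and 21.6% of the HC signal.

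*Rims2* (ENSMUSG00000037386, chromosome 15, 39029878 to 39513486, plus strand) had 3080 in cochlear HCs, 120 in cochlear ENSCs, 383.5 in vestibular HCs and 148.5 in vestibular ENSCs. Cochlear HCs stood apart from the 3 other libraries. The HC to ENSC ratio was 25.7 for the cochlea and 2.58 for the vestibular system (log2 ratios 4.68 and 1.37), the second under the threshold. *Rims3*, a short relative, had 155.5 in cochlear HCs and was inside the tied range in the other 3 libraries, at 21.25 in cochlear ENSCs, 25.75 in vestibular HCs and 20 in vestibular ENSCs. *Rims1* and *Rims4* were not analysed here.

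Levels were compared between genes as signal per kb of exonic length. In cochlear HCs *Rims2* came first with 570.2 per kb, followed by *Slc17a8* (224), *Otof* (198), *Cacna1d* (163), *Ctbp2* (80.9), *Pclo* (36.6) and *Bsn* (16.8), with *Cabp2* inside the tied range. In vestibular HCs *Slc17a8* came first with 2504 per kb, above 99.5% of the 12799 genes with a length. It was followed by *Otof* (482), *Cabp2* (192), *Cacna1d* (122), *Ctbp2* (93.4), *Rims2* (71.0), *Pclo* (36.4) and *Bsn* (12.8). With no replicate, no spread tells which neighbours in these orders differ. Exonic length is that of all annotated transcripts together, which lowers the value of genes with long alternative exons.

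The organs were compared through their HC libraries, to ask which synapse genes differ between the HCs of hearing and of balance. *Rims2* was 8.03-fold higher in cochlear HCs, and *Slc17a8* (11.2-fold) and *Cabp2* (at least 10.7-fold) were higher in vestibular HCs. Over all genes 4.21% were at least 3-fold higher and 5.09% at least 3-fold lower in cochlear HCs. The other 5 genes were under the threshold. *Otof* was 2.43-fold and *Ctbp2* 1.16-fold higher in vestibular HCs, and *Cacna1d* 1.33-fold and *Bsn* 1.31-fold higher in cochlear HCs, whereas the *Pclo* signals were 747.5 and 744. Without a replicate library it is not known how much of this 2 sorts of the same organ would show. With a floor of 100, or with 100 added to every signal, *Cabp2* was under 3-fold (log2 ratios -1.37 and -1.55).

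In the ENSC libraries none of the 8 genes was at least 3-fold apart between the organs, against 7.8% of all genes higher and 7.94% lower in the cochlea. The log2 differences, cochlear minus vestibular, were 1.55 for *Otof*, 0.72 for *Slc17a8*, -0.70 for *Cacna1d*, -0.60 for *Ctbp2* and -0.31 for *Rims2*. *Pclo* had 0.11, and *Bsn* and *Cabp2* were inside the tied range in both.

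No library enters the HC to ENSC ratio of both organs, and the ratios can be set side by side for each gene. They do share the HC libraries with the comparison of the organs above. The vestibular log2 ratio exceeded the cochlear one by 4.20 for *Slc17a8* and by 2.83 for *Otof*. The vestibular ENSC signal of *Otof* (20.25) is inside the tied range by the looser rule, which makes its vestibular ratio a lower bound. For *Rims2* the vestibular minus the cochlear value was -3.31 and for *Cacna1d* -1.12. *Ctbp2* and *Pclo* differed by -0.39 and 0.10. For *Bsn* both ratios are lower bounds, and for *Cabp2* the vestibular one is a lower bound and both cochlear signals are inside the tied range, so that their differences are not determined. Of all genes, 99.4% had a lower difference than *Slc17a8* and 0.9% a lower one than *Rims2*. The scatter of the ratios shows *Pclo* and *Ctbp2* near the line of equal ratios and *Slc17a8* and *Rims2* far from it.

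**Figure D3:**
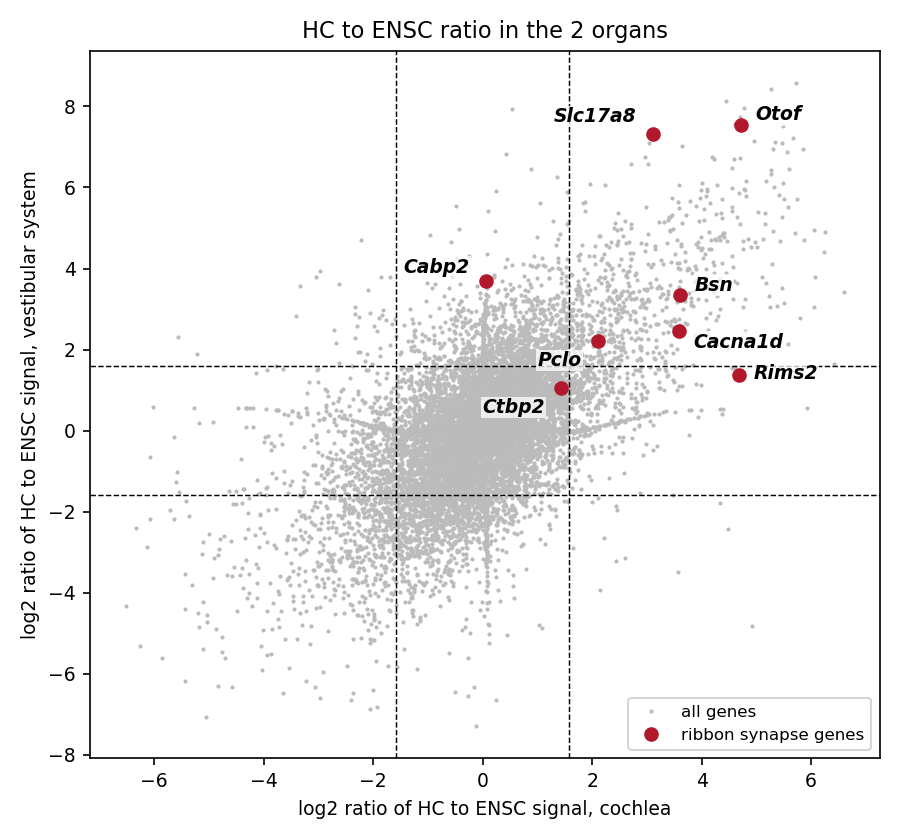
Log2 ratio of HC to ENSC signal in the cochlea (x axis) against that in the vestibular system (y axis) for 12814 genes (grey) and the 8 ribbon synapse genes (red), with dashed lines at 3-fold either way. *Otof*, *Slc17a8*, *Bsn*, *Cacna1d* and *Pclo* lie past 3-fold in both organs, *Rims2* in the cochlea only and *Cabp2* in the vestibular system only.

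The ENSC signal of each gene was expressed as a percent of the HC signal and set beside that of the HC markers, to show how the signals of different HC genes compared in the ENSC libraries. In the cochlea the 5 HC markers above the tied range (*Atoh1*, *Pou4f3*, *Myo7a*, *Myo6* and *Pvalb*) kept from 2.07% to 5.50%. *Otof* (3.78%) and *Rims2* (3.90%) were within this range, and *Cacna1d* (8.34%), *Slc17a8* (11.6%), *Pclo* (23.2%) and *Ctbp2* (36.8%) were above it. The other 5 markers, inside the tied range, had percents from 3.59% (*Gfi1*) to 25.2% (*Lhx3*). In the vestibular system 1 marker, *Myo6*, was above the tied range and kept 5.86%, and those inside it had percents from 0.803% (*Pou4f3*) to 18.6% (*Lhx3*). *Otof* had 0.532% and *Slc17a8* 0.628% there, *Cacna1d* 18.1%, *Pclo* 21.6%, *Rims2* 38.7% and *Ctbp2* 48.2%. A percent whose ENSC signal is inside the tied range is not a measured level, so that no order is read between the genes and those markers.

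Genes that act with these 8 were taken from lists by role. Of the 17 other genes of the active zone and ribbon scaffold, 7 were at least 3-fold higher in cochlear HCs and 8 in vestibular HCs, and 6 in both. *Unc13b*, a priming factor, was over 3-fold lower in HCs of the vestibular system (log2 ratio -3.92, with -1.25 for the cochlea). The list's median log2 ratio was 1.17 for the cochlea and 0.36 for the vestibular system, or 0.99 there after length and GC correction. *Rimbp2*, whose protein links RIM to calcium channels, was higher in HCs by at least 11.8-fold in the cochlea and at least 15.8-fold in the vestibular system. *Rab3ip*, which encodes a binding partner of RAB3A, and *Rab3a*, the gene of this vesicle GTPase, had log2 ratios of 2.28 and 3.66, and of 3.07 and 3.54. *Dmxl2*, which encodes the vesicle protein rabconnectin-3α, had 1876.5 in cochlear HCs, 397 in cochlear ENSCs, 2101 in vestibular HCs and 375.5 in vestibular ENSCs.

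Of 13 calcium channel subunits and calcium-binding modulators, 5 were at least 3-fold higher and 2 lower in cochlear HCs, and 4 higher and 0 lower in vestibular HCs. The list median was 0.89 for the cochlea and 0.20 for the vestibular system. After length and GC correction the vestibular median was 1.12, against 0.11 over all genes, and 3 genes were higher. *Cacnb2*, the auxiliary subunit that carries CaV1.3 to the membrane of inner HCs, had 1516 in cochlear HCs, 76.75 in cochlear ENSCs, 952.5 in vestibular HCs and 133.75 in vestibular ENSCs. Its log2 ratios of 4.30 and 2.83 lay beside those of *Cacna1d* (3.58 and 2.46). *Cacna1b*, the pore of the N-type channel, had log2 ratios of 2.29 and 1.65. *Cacna1c*, the pore of the other common L-type channel, stood at 20 in both HC libraries and in cochlear ENSCs, and at 43.25 in vestibular ENSCs. Of the auxiliary α2δ genes, *Cacna2d2* reached 446.75 in cochlear HCs and 179.5 in those of the vestibular system, with log2 ratios of 0.69 for the cochlea and 0.20 for the vestibular system, and *Cacna2d1* was lower in HCs within the cochlea (-3.87), with -0.47 within the vestibular system. *Cacna2d3* stood at 81 in HCs of the cochlea and at 20 in its ENSCs, a ratio of at least 3.56, and at 40.75 and 38.5 in HCs and ENSCs of the vestibular system.

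Of 20 genes of the fusion machinery, 8 were at least 3-fold higher in HCs within the cochlea and 6 within the vestibular system, and 0 and 1 were lower. The list median was 1.07 and 0.26. After length and GC correction the vestibular median was 0.90, and 8 genes were higher and 0 lower there. *Snap25*, a SNARE protein of neuronal membranes, had 1291 in cochlear HCs, 53.25 in cochlear ENSCs, 2090.5 in vestibular HCs and 20 in vestibular ENSCs. This was 24.2-fold in the cochlea and at least 104.5-fold in the vestibular system. Among the synaptotagmins, *Syt7* had log2 ratios of 4.31 and 4.78 and *Syt4* of 2.38 and 3.87, and *Syt2* was 18.4-fold and at least 17.9-fold higher. *Syt1*, the fast calcium sensor of most neurons, had 2653 in cochlear HCs against 1317 in ENSCs of that organ, a log2 ratio of 1.01, and 1198 against 70.75 in the vestibular system (4.08). Of 2 further SNARE genes of neurons, *Stx1a* had 43.5 in cochlear HCs and 20 in the other 3 libraries, and *Vamp2* had log2 ratios of -0.73 and -1.53. *Cplx1*, a complexin of conventional synapses, had 73.5 in cochlear HCs and was inside the tied range elsewhere, and *Cplx3* and *Cplx4*, those of retinal ribbon synapses, were not analysed here.

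The relatives of *Otof* were divided. *Fer1l6*, another ferlin, was 67.1-fold higher in cochlear HCs than in cochlear ENSCs (2231 and 33.25) and at least 13.8-fold higher in vestibular HCs (276.75) than in vestibular ENSCs. *Myof* (myoferlin) was at least 9.25-fold and 12.2-fold lower in HCs. The list held 4 genes in all, of which 1 was higher and 1 lower in each organ, or 2 higher in the vestibular system after length and GC correction. *Wrb* and *Asna1*, whose products insert tail-anchored proteins such as otoferlin into membranes, had cochlear log2 ratios of 0.79 and -0.61 and vestibular ones of 1.58 and -1.39. The vestibular value of *Wrb* was just under 3-fold and became 1.60, just above it, with the correction. *Dysf* and *Fer1l5* were not analysed here.

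Of 14 genes of vesicle filling and the vesicle membrane, 5 were at least 3-fold higher in HCs within the cochlea and 6 within the vestibular system, and 1 and 0 were lower. The list median was 0.34 and 1.24. *Syp* (synaptophysin) was higher in HCs by at least 14.1-fold in the cochlea and at least 3.10-fold in the vestibular system (at least 2.67-fold by the looser rule for the tied range), and its relative *Synpr* at least 3.25-fold and 19.9-fold. *Sv2a*, a vesicle glycoprotein, was higher by at least 5.89-fold in the cochlea and by 10.9-fold in the vestibular system. *Atp6v0a1*, a subunit of the proton pump that powers vesicle filling, had log2 ratios of 2.52 and 1.98. *Syn1*, a synapsin of conventional synapses, stood at 34.75 in HCs of the cochlea, 72.25 in those of the vestibular system and 20 in both ENSC libraries.

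Of 19 genes of vesicle endocytosis, 5 in each organ had an HC signal at least 3 times the ENSC signal, 3 of them in both, and the reverse held for 1 gene, in the cochlea. Those higher in both were *Dnm3*, a dynamin (log2 ratios 3.36 and 4.64), *Amph*, or amphiphysin (2.90 and 2.0), and *Synj1*, or synaptojanin (1.69 and 1.78). The *Synj1* vestibular value was 1.54 after length and GC correction, just under 3-fold. The general coat genes *Cltc* and *Picalm* had log2 ratios from -0.26 to 0.15, and vestibular ones of -0.79 and -0.34 after that correction. The list median was 0.17 for the cochlea and 0.37 for the vestibular system, or 1.01 there after length and GC correction. The bars of list shares and the plot of single ratios show these lists beside all genes.

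**Figure D4:**
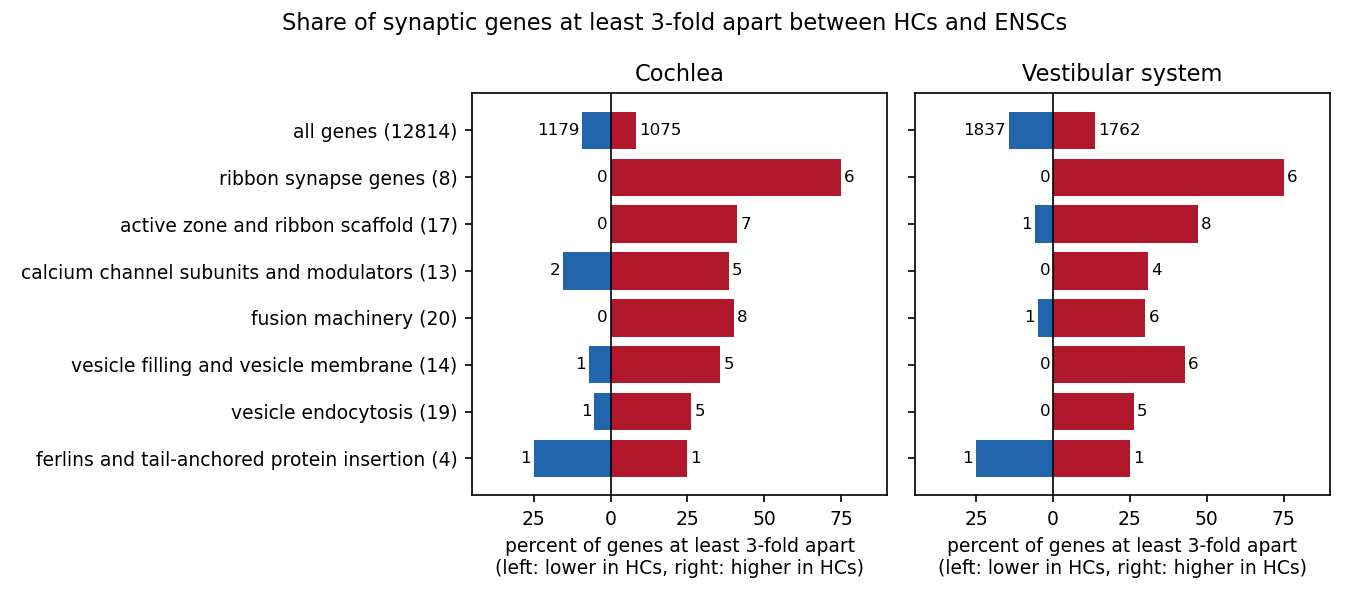
Percent of genes at least 3-fold higher (red, right) or lower (blue, left) in HCs than in ENSCs, for all genes, the 8 ribbon synapse genes and 6 lists of synaptic genes in the cochlea and the vestibular system, with the number of genes at each bar and the list size in brackets. The ribbon synapse genes reach 75% in both organs, the other lists lie between 25% and 47.1% higher, and all genes at 8.39% and 13.8%.

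**Figure D5:**
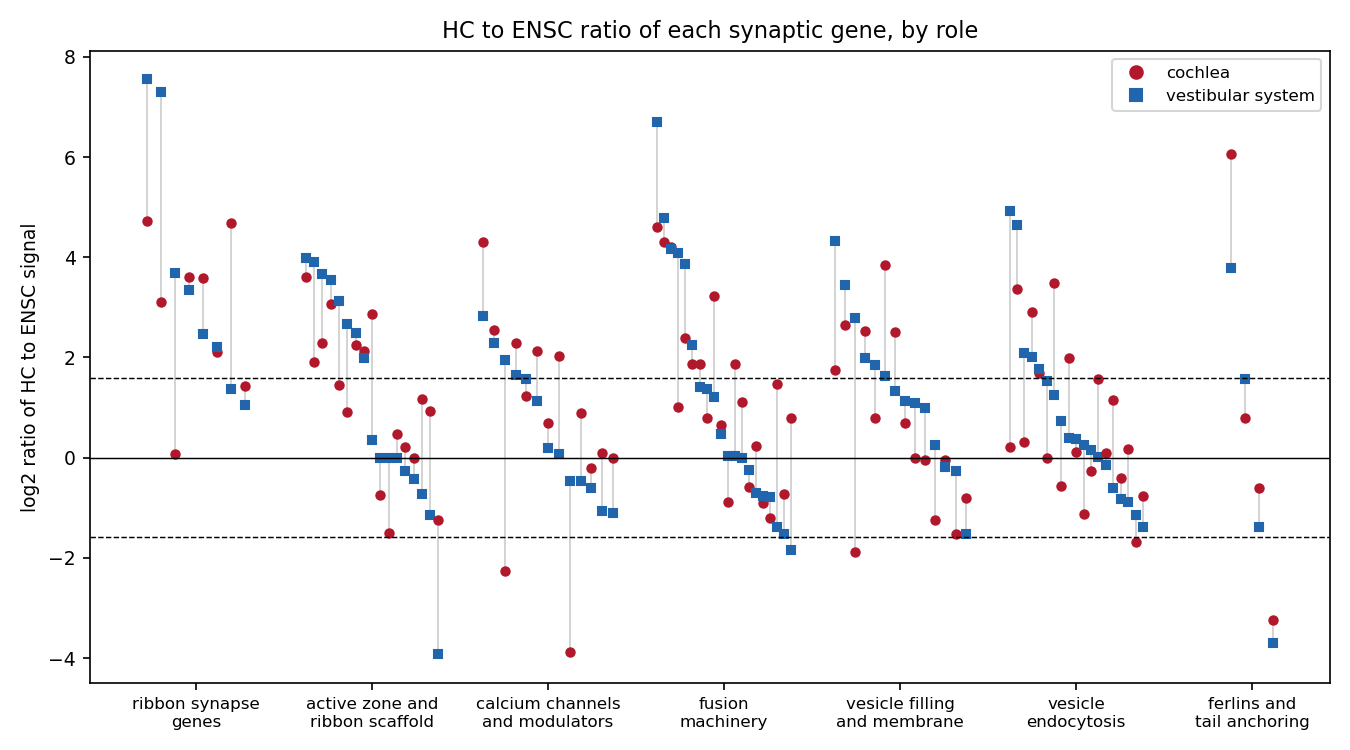
Log2 ratio of HC to ENSC signal of each listed gene in the cochlea (red circles) and the vestibular system (blue squares), grouped by role, with a grey line joining the values of 1 gene and dashed lines at 3-fold either way. The ribbon synapse genes all lie above 0, with both cochlear signals of *Cabp2* (0.07) inside the tied range, whereas each other list holds genes on both sides of it.

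Genes of the afferent neurons that contact HCs, and of glia, were listed to see whether other cells in the sort moved with these results. Of the 11 genes of afferent neurons and postsynaptic sites, 3 were at least 3-fold higher and 2 lower in HCs in each organ, and 6 listed genes were not analysed here. *Gria3*, a glutamate receptor subunit, was lower in both, with 148.25 in HCs and 572 in ENSCs of the cochlea, and 55.5 and 463.5 in those of the vestibular system. The other lower gene in the cochlea was *Ntrk2*, a neurotrophin receptor (21.5 and 111.75, at least 4.61-fold). In the vestibular system the other was *Gria2* (23 and 87.5), whose HC signal is inside the tied range, and the bound of 2.87-fold is under the threshold. Their summed signal was 5695 in cochlear HCs, 1286 in cochlear ENSCs, 5567 in vestibular HCs and 976.25 in vestibular ENSCs. The neurofilament genes *Nefl* (2381 and 2470 in cochlear and vestibular HCs) and *Nefm* (1995 and 2121) made up most of the HC sums. Their ENSC signals were 41 and 76.75 in the cochlea and 20 each in the vestibular system. The third higher gene was *Gria4*, a subunit of the same receptor family, in the cochlea (589.25 and 114.75) and *Elavl4*, a neuronal RNA-binding protein, in the vestibular system (586.75 and 20.5). *Stmn2*, another abundant neuronal transcript, had 30.75 in HCs against 81.5 in ENSCs of the cochlea, and 22 against 20 in the vestibular system. *Ntrk3*, a neurotrophin receptor of these neurons, stood at 20 in cochlear HCs and 61.25 in vestibular HCs. Of the 6 glia markers, 5 were at least 3-fold higher in ENSCs of the cochlea and 3 in those of the vestibular system, and 0 in HCs. After length and GC correction 2 were higher in vestibular ENSCs, with *Mbp* (log2 ratio of HC to ENSC signal -1.45) under 3-fold. HCs had been gated on CD326 beside the fluorescent protein, which the methods give as the step that removes neurons. The part of neuronal RNA in the results was not tested. Supporting cell markers were also present in the HC libraries. Of the 10, 0 were at least 3-fold higher in HCs within the cochlea and 1 within the vestibular system, and 3 in each organ were lower. With length and GC correction 2 were lower in the vestibular system, where *Sox9* (log2 ratio -1.54) was just under 3-fold. In cochlear and vestibular HCs *Sox2* had 2659.5 and 3961, *Jag1* 7815 and 1712.5, *Prox1* 1147 and 1722, *Gjb2* 4084 and 329.25, and *Sox9* 936.75 and 1364.5. The epithelial genes *Epcam* (1017 and 1139) and *Cdh1* (6003 and 178.5) were also above 1000 in an HC library. Their part in the results was not tested either. Of 7 mesenchyme markers, 1 in each organ was at least 3-fold higher in HCs, and 3 and 5 were lower. None reached 1000 in an HC library. Their summed signal was 1505 in cochlear HCs and 390.5 in vestibular HCs. In cochlear ENSCs it was 16356, of which *Lum* had 12731, and in vestibular ENSCs 2269. The part of mesenchyme in the ratios was not tested.

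For each gene the 3 protein-coding genes with the most similar pattern were found among the 6727 that reached a signal of 200 in any of the 4 libraries. Likeness was the Euclidean distance between log2 signals after each gene's mean was taken off, over 4 libraries only. Nearest to *Otof* were *Xirp2* (0.34), 1700003M02Rik (0.55) and *Snap25* (0.65), the last with 1291, 53.25, 2090.5 and 20 from cochlear HCs to vestibular ENSCs. Nearest to *Slc17a8* were *Kcp* (0.16), *Armc4* (1.0) and 6430704M03Rik (1.14), of which *Kcp* had 257, 31.25, 2743 and 20 in the same order. Nearest to *Cacna1d* were *Zmat4* (0.16), *Scg5* (0.20) and *Madd* (0.46), which encodes an exchange factor for RAB3. Nearest to *Pclo* were *Napb* (0.23), a SNARE-disassembly adaptor, *Dmxl2* (0.24) and *Akap9* (0.25).

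Nearest to *Bsn* were *Tmcc2* (0.08), *Dll3* (0.10) and *Tmem173* (0.13), with the *Tmcc2* signals at 595.25, 49.75, 486 and 44.5. *Ctbp2* lay closest to *Wdr35* (0.06), *Eif4e2* (0.12) and *Ndufab1* (0.15), genes with similar modest HC to ENSC ratios. *Rims2* lay closest to *Fam38b* (0.28), which had 1467, 60.25, 172.25 and 57.5 and is now named *Piezo2*, and then to *Pnma2* (0.60) and *Syp* (0.62). For *Cabp2* the nearest genes, 1700028P14Rik (0.01), E230019M04Rik (0.08) and *March4* (0.10), shared its 3 signals inside the tied ranges, so that the likeness rests on vestibular HCs. *March4* was named by its identifier, since its symbol in the table had become a number. The ENSC signals of *Bsn*, and 1 or both of those of all 3 genes printed for *Otof* and for *Slc17a8* and of *Pnma2* and *Syp*, are inside the tied ranges, so that these distances are not determined exactly. Among the 6 of the 8 genes outside the tied ranges in all libraries, the closest pairs were *Ctbp2* with *Pclo* (1.05) and *Cacna1d* with *Pclo* (1.08).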

How the data were processed

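Sorted HCs and ENSCs of the cochlea and the vestibular system gave 4 columns, 1 per sample. The labels name polyadenylated RNA as the molecule. Per the methods the input of the amplification (NuGEN Ovation) was total RNA. The deposited unit is a gene-level signal, for which the authors mapped the first 50 nt of the reads to mm9 with TopHat, used HTSeq to count them over ENSEMBL genes, and then applied quantile normalization and a floor of 20. Versions, annotation release and strand setting are not given in the sources used here. Quantile normalization gives every library the same distribution, which hides differences in depth and total RNA. The design text names triplicates, but each population had 1 column, so no test was made and no precision can be given. Columns with non-HC names were matched to the ENSC samples.

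Log2 ratios were computed without pseudocount, and genes 3-fold or more apart were counted, over all 12814 genes. Positions, length and GC content came from GENCODE vM1 on NCBIM37 (12799 genes matched). Sequence shared with other places was searched with BLAST 2.17.0 (at least 50 nt at 96% identity). Tables were made with Python 3.11.15, pandas 2.3.3 and statsmodels 0.14.6 (local regression over 0.3 of the genes with 2 iterations). The end of a tied range was the last signal before the lowest of the genes' highest signals elsewhere dropped to under 0.5 of that one step lower. At the first step above the floor, the reference was instead the median of those highest signals among genes at the floor. This rule is 1 of 3 tried with the real data in view. The first did not recover every end in simulated data, which were also changed once to vary more between libraries. The second, a looser one (under 0.25 of the median one step lower), moved the end in vestibular ENSCs from 20 to 23.25 and was set aside because the signals there did not rise in order above 20. The third recovered every simulated end. The simulated ties at the floor were set in the order of the genes' highest signals, which is the pattern the rule looks for. This recovery therefore does not show that the ends in the real libraries are right. The genes followed and the lists were chosen with earlier results of these data known. Named genes were the 8 genes, their 3 nearest patterns, up to 4 genes per list at least 3-fold apart the same way in both organs, and genes of lists of other cell types with a signal of at least 1000 in an HC library. The remaining named genes were picked with their values known. Some genes of the lists are not reported here. The alternatives were floors of 50 and 100, pseudocounts of 20 and 100, centring on the median, tied ranges raised to their top, a correction for length and GC content, and thresholds of 2 and 5. The looser rule for tied ranges was added after seeing the data.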

Additional observations from a re-analysis of the deposited data

Results flagged for a closer look

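Among 143 genes, the 8 and those of the lists, 2 were at least 3-fold apart between HCs and ENSCs in opposite directions in the organs. The share over all genes is not given, so that it is not known whether this is many or few. *Cacnb4*, an auxiliary subunit of calcium channels, had 21 in cochlear HCs, 101.5 in cochlear ENSCs, 99.25 in vestibular HCs and 25.75 in vestibular ENSCs. Its log2 ratio of HC to ENSC signal was -2.27 for the cochlea and 1.95 for the vestibular system. The cochlear HC signal lay inside the tied range, so that ENSCs were at least 4.19-fold higher there. After length and GC correction the vestibular value was 1.23, under 3-fold. *Sv2b*, a vesicle glycoprotein, had 136.25, 503.75, 212.25 and 31 in the same order, with log2 ratios of -1.89 and 2.78. In both genes the ENSC signals of the organs differed more than 3-fold (log2 differences of 1.98 and 4.02), though the value of *Cacnb4* was 1.38 after length and GC correction. The HC signals of *Cacnb4* also differed, with vestibular HCs at least 3-fold above cochlear HCs. The log2 difference, cochlear minus vestibular, was -2.24 as deposited and -2.03 with the cochlear HC signal raised to the top of its tied range. With 1 column per group the difference between the organs was not tested.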

How the results depend on the processing

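The count of genes at least 3-fold higher in HCs was 6 in both organs and ranged from 5 to 6 in the cochlea and from 4 to 7 in the vestibular system over the alternatives at that threshold. A threshold of 2 gave 7 and 8, and one of 5 gave 5 in both. The cochlear median log2 ratio of 3.35 became 2.61 with a floor of 100 and 2.01 with a pseudocount of 100. The vestibular median of 2.91 became 2.29 with a floor of 50, 1.79 with a floor of 100 and 1.64 with a pseudocount of 100. These settings shrink ratios with a low signal by construction. Between HC libraries, 1 gene instead of 2 was lower in the cochlea with a floor of 100 and with a pseudocount of 100. Between ENSC libraries, 1 gene instead of 0 was higher in the cochlea with length and GC correction and with a threshold of 2. The rule for the end of the tied range was chosen after seeing the data. With the looser rule, also added after seeing the data, 1988 instead of 1412 genes lay inside the range in vestibular ENSCs. No count of the 8 genes moved, the median between ENSC libraries went from 0.11 to -0.03, and the vestibular lower bounds became 164-fold for *Otof* (188-fold before, with no bound), 11.1-fold for *Cabp2* (12.9) and 8.80-fold for *Bsn* (10.2). Among values of single genes under the alternatives, 243 kept their side of the threshold without a change of sign (some under it became 0), 7 were no longer past 3-fold, 2 were newly past it and 4 under it changed sign; these were ratios of *Bsn*, *Cabp2*, *Ctbp2*, *Otof* and *Pclo*. No paired analysis was possible because each group had 1 column, and for the same reason no replicate could be left out. Quantile normalization and the unknown depth limit what low signals can show.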
